A study of Homo sapiens with 18 samples.

Results

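The genes described here are the nuclear genes for subunits of the 5 complexes of oxidative phosphorylation. The question is in which of them peaks were called in an RNA crosslinking experiment with MYC. Members were the protein-coding genes of the RefSeq table of GRCh38.p14 with the symbols of complex I (NDUFA, NDUFB, NDUFC, NDUFS or NDUFV with a number, and NDUFAB1), complex II (SDHA to SDHD), complex III (UQCR and CYC1), complex IV (COX4 to COX8) and complex V (ATP5). The rule found 89 genes among 20056 protein-coding genes, with 38 in complex I, 4 in complex II, 10 in complex III, 17 in complex IV and 20 in complex V. It uses names only and no measured value. Read-through genes, which join a member to its neighbour, account for 2 of the 89 (NDUFC2-KCTD14 and ATP5MF-PTCD1).

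MYC is a transcription factor that also contacts RNA. RNA crosslinked to FLAG-tagged MYC was read by eCLIP, in which protein and RNA are joined in the cell, the protein is precipitated and the attached RNA fragments are sequenced. All samples came from U2OS, an osteosarcoma line of human origin, whose own MYC gene had been knocked out and which carried MYC-3A, MYC-7A or wild-type MYC under a Tet-On (doxycycline) switch. The 3 peak lists come from the immunoprecipitates made after 24 h with 1 µg/mL doxycycline, with 2 immunoprecipitated libraries and 1 input library for each allele in the labels. The labels do not say which residues 3A and 7A change or whether each line is a clone. The matching PBS cells have no peak list among the 3, so no uninduced background stands beside the values. Each allele has 1 list and no values per library, so no difference below has a replicate check and none was tested. Sequencing depth is unknown, RNA levels were not measured, and the 3A and 7A lists are short (103 and 88 peaks, against 2149 for wild type). A gene without a peak is only one in which no peak was called. Of 5 mesenchymal markers, 3 had a peak in 1 list each (LGALS1 in 3A, SPARC in 7A and VIM in wild type). COL1A1 and COL1A2 had none. No peak lay in any of 5 markers of liver, pancreas or blood in any list. These counts cannot check the cell type. A peak marks bases called as enriched over a background that is not named, and it does not measure RNA level. Only 6.78% of all protein-coding genes had a wild-type peak.

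Oxidative phosphorylation passes electrons from NADH and succinate through complexes I and II to coenzyme Q, then through complex III and cytochrome c to complex IV, which reduces oxygen. Complexes I, III and IV pump protons across the inner mitochondrial membrane, and complex V, the ATP synthase, lets them return through its c ring and turns out ATP in its F1 head. A small set of core subunits is made from mitochondrial DNA. All other subunits are translated in the cytosol from nuclear messages, the ones described here, and imported.

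A 3A peak overlapped 2 of the 89 genes (2.25%), a 7A peak 0, and a wild-type peak 38 (42.7%). Over all protein-coding genes the shares with a peak were 0.359% for 3A, 0.269% for 7A and 6.78% for wild type. Subunit genes are short, with a median span of 9242 bp against 24092.5 bp for all protein-coding genes. Among genes of at most 10 kb, 20 of 46 members (43.5%) and 7.6% of 5708 protein-coding genes had a wild-type peak.

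The subunit genes held 60 wild-type peaks, each counted once at the shorter of overlapping members. Their widths ran from 101 to 300 bp with a median of 159 bp, against 165 bp over the whole list. Of 40 peaks in genes whose strand the promoter table gives, 39 lay on the strand of the gene. Peaks covered 14 members at least 2 times (15.7%, against 2% of all protein-coding genes), and these 14 genes held 37 of the 60 peaks. The F1 subunit gene ATP5F1B had 5, COX4I1 and CYC1 had 4, and ATP5F1A and ATP5F1D had 3.

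**Figure D1:**
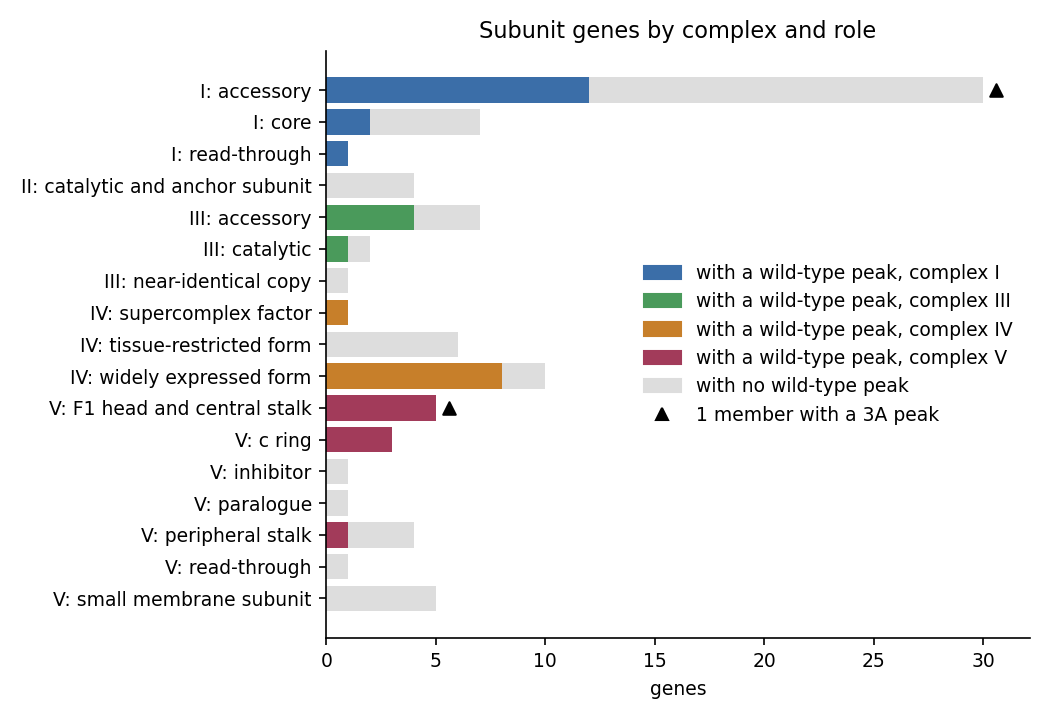
Number of subunit genes (horizontal axis) in each role group of complexes I to V, coloured by complex where a wild-type peak overlaps the gene and grey where none does; a triangle marks the groups in which 1 member has a 3A peak. All 5 F1 and all 3 c ring genes have a wild-type peak, and none of the 4 complex II genes and none of the 6 tissue-restricted complex IV genes does.

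Sequences around the starts of members with a wild-type peak just downstream are shown because 5 of the 10 member peaks of highest fold enrichment lie at a gene start. They come from genes of complexes I, III, IV and V with start peaks for which RefSeq gives a promoter, and from genes whose peak lies at the start of another annotated transcript. The choice did not strictly follow fold enrichment. ATP5F1C (9.01) is shown, and NDUFB10 (13.6), NDUFS6 (11.7) and COX5B (11.2), with higher start peaks, are not. Each line runs 5′ to 3′ on the strand of the gene in GRCh38.p14, from 100 bases before the annotated start to its first 30 bases. Capitals mark matches to an ETS core (CCGGAAG), an NRF1 core (GCATGCG) or a YY1 core (AAGATGG) on either strand, and in ATP5F1C 2 overlapping NRF1 matches on opposite strands form 1 run. NDUFB6, NDUFAB1, UQCR10, COX7A2L and NDUFB11 have no match in these bases. These are short motifs of DNA-binding factors that are known to act at many respiratory genes, and a match is not evidence of a site. In order, the windows are chr10:100529842-100529971 (minus), chr9:32573130-32573259 (minus), chr16:23596287-23596416 (minus), chr1:46303598-46303727 (plus), chr22:29767269-29767398 (plus), chr5:86617841-86617970 (plus), chr2:42361188-42361317 (minus), chr10:7788077-7788206 (plus), chr18:46098267-46098396 (minus) and chrX:47144673-47144802 (minus).
NDUFB8: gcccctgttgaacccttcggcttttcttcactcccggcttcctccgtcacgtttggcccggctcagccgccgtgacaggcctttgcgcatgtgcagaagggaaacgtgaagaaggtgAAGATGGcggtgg
NDUFB6: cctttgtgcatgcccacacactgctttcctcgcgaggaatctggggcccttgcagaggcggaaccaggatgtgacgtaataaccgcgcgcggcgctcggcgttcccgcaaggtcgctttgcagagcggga
NDUFAB1: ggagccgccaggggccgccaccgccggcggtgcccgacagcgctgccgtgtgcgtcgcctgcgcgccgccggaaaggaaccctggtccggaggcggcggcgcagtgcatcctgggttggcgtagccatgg
UQCRH: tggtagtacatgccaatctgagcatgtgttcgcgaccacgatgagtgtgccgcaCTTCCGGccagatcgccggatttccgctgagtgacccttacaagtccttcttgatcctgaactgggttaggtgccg
UQCR10: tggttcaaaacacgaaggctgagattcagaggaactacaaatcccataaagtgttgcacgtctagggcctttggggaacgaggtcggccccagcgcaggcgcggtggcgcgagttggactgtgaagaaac
COX7C: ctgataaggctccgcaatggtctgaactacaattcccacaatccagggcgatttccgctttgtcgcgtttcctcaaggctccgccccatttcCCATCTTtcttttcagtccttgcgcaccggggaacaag
COX7A2L: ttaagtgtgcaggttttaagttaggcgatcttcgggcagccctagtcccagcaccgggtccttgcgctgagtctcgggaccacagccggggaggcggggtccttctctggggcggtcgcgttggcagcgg
ATP5F1C: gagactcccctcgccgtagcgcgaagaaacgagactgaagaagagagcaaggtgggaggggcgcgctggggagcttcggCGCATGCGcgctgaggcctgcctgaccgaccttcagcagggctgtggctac
ATP5F1A: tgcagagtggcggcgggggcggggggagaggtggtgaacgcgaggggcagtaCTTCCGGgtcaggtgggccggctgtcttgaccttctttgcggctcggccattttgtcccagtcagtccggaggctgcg
NDUFB11: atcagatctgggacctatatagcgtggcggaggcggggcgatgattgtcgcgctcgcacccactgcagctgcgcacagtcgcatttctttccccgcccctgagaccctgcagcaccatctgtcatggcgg

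In these 10 genes the summit of the wild-type peak at the start shown lay 85, 174, 137, 73, 139, 145, 96, 79, 87 and 139 bp downstream of it, in the order of the lines. The starts shown for NDUFB8, COX7A2L, ATP5F1A and NDUFB11 are not the outermost ones of those genes. A promoter at the outermost start was given for 68 of the 89 members, and each motif was sought on both strands of the whole window of 250 bases before to 50 after it. The ETS core was in 19 of the 68 (27.9%, against 14.6% of 13820 protein-coding promoters), the YY1 core in 15 (22.1%, against 6.69%) and the NRF1 core in 11 (16.2%, against 5.33%). The E-box CACGTG, the DNA motif of MYC and its partner MAX, was in 7 (10.3%, against 8.95%), and the wider CANNTG, which includes it, in 42 (61.8%, against 64.8%). A start with a C followed by 4 pyrimidines, a form known from messages of the translation machinery, was annotated in 7 (10.3%, against 4.57%). Of those 7, 6 were among the 27 members with a promoter and a wild-type peak, and 1 was among the 41 without a peak. The 6 include NDUFC1, whose peak lies on the opposite strand, and ATP5PO, whose only peak lies near the gene end. The share of such starts over all genes with a wild-type peak was not determined. The single CACGTG box among the 27 was that of ATP5MC1, and the 41 held 6. The ETS core was in 9 of the 27 and 10 of the 41, and CANNTG in 16 and 26. For the NRF1 core the counts were 4 and 7, and for the YY1 core 3 and 12. An annotated start can miss the base where transcription begins, and none of these shares was tested.

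In complex I, which oxidises NADH, a wild-type peak overlapped 15 of 38 genes (39.5%), the read-through gene included. Of the 7 core subunits encoded in the nucleus, which form the arm that takes electrons from NADH to coenzyme Q, 2 had a peak in their gene. Fold enrichments, here and below, are the authors' values for each peak. NDUFV1, the flavin subunit, had peaks 99 and 786 bp from its start with fold enrichments of 8.53 and 8.11. NDUFS3 had its only peak 147 bp before the end of the gene (12.4). Among the core genes without one were NDUFS1, NDUFS7, NDUFS8 and NDUFV2.

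Among the 30 accessory genes of complex I, 12 had a peak, and they were unevenly spread over the names. Of 11 NDUFB genes, most of whose products sit in the membrane arm, 6 had a peak, against 1 of 12 NDUFA genes. This grouping was made after the values were seen. NDUFB8 led with a fold enrichment of 24.8 on chromosome 10 from 100529738 to 100529854, which ranked 33 of 2149 peaks. NDUFB6 followed with 18.1 (chromosome 9 from 32572869 to 32573118) and NDUFAB1, the mitochondrial acyl carrier protein, with 17.3 (chromosome 16 from 23596113 to 23596265). All 3 peaks lay at gene starts, as did that of NDUFB10 (13.6). NDUFS6, a zinc-binding subunit, had a peak at each end of the gene, 108 bp from the start (11.7) and 83 bp before the end (11.8), in a span of 14642 bp. NDUFB7 had the same arrangement at lower enrichment, 6.92 at the start and 6.43 at the end. NDUFB9 (11.1 and 6.25) and NDUFS5 (4.27 and 4.48) each had 1 peak inside the gene and 1 near its end, NDUFA9 had 1 inside (11.2), and NDUFB11 had 1 at another annotated start (6.4). NDUFC2 had a start peak of 6.21, which the read-through gene NDUFC2-KCTD14 shares.

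The peak counted for NDUFC1 lies on the opposite strand. It runs on the plus strand of chromosome 4 from 139301565 to 139301828 (5.37), NDUFC1 is on the minus strand, and the summit lies 132 bp downstream of the start of NAA15, a plus-strand gene for an acetyltransferase subunit that overlaps NDUFC1. The accessory genes without a peak were NDUFA1 to NDUFA3, NDUFA5 to NDUFA8, NDUFA10 to NDUFA13, NDUFB1 to NDUFB5, NDUFS4 and NDUFV3.

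The gene formerly named NDUFA4, now known to encode a complex IV subunit, is listed as COXFA4 and so is no member by symbol. It has a 7A peak on chromosome 7 from 10939993 to 10940106, with a fold enrichment of 7.89 that ranked 54 of 88. The wild-type list has a peak at nearly the same bases, from 10939981 to 10940105 (10.3). Their summits lay 105 bp (7A) and 97 bp (wild type) downstream of the gene start. Fold enrichments of different lists are given side by side and not compared, because the control and depth of each list are unknown.

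Complex II, succinate dehydrogenase, was the complex with no peak in any list, over the genes of its flavin subunit SDHA, its iron-sulfur subunit SDHB and the membrane anchors SDHC and SDHD. With 4 genes, that count limits the share little.

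In complex III, 5 of 10 genes (50%) had a wild-type peak. CYC1, which encodes cytochrome c1, the electron donor to cytochrome c, carried 4 peaks along its 2450 bp. Their fold enrichments from start to end were 14.7, 8.73, 10.8 and 8.9. The first, on chromosome 8 from 144095118 to 144095314, had a −log10 q of 102, which ranked 55 in the list by that value. UQCR10 had a start peak of 13.4 and one of 17.2 farther down, UQCRH, the hinge protein, a start peak of 16.3, UQCRQ peaks of 8.97 and 4.58, and UQCRB one of 5.96 inside the gene. The core proteins UQCRC1 and UQCRC2, the Rieske iron-sulfur protein UQCRFS1 and UQCR11 had none. UQCRHL, a copy of UQCRH without introns, had none either, and reads shared by such copies can be placed at either.

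In complex IV, cytochrome c oxidase, the peaks fell on the widely expressed forms of its subunits. Of 10 genes of those forms 8 had a wild-type peak, against 0 of the 6 forms that are typical of heart and muscle, lung or testis (COX4I2, COX6A2, COX6B2, COX7A1, COX7B2 and COX8C). RNA of those 6 in these cells was not measured, and 4 of them have a sister gene with a peak: COX4I1 for COX4I2, COX6A1 for COX6A2, COX6B1 for COX6B2 and COX8A for COX8C. COX4I1 had 4 peaks, with fold enrichments of 7.42 at the start, then 22.9, 6.76 and 3.62. The second, on chromosome 16 from 85804990 to 85805150, lay 72.8% of the way along the gene and ranked 49 in the list. COX6C had 1 peak of 19.5, COX5B peaks of 11.2 at the start and 17.1 near the end, and COX7C a start peak of 12.9. COX8A (8.59), COX5A (7.7) and COX6A1 (7.26) had start peaks below 10, and COX6B1 had a single end peak of 3.55, the lowest of the 60. COX7A2L, which helps to join complexes III and IV, had a peak of 12.2 at another annotated start. COX7A2 and COX7B had none.

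In complex V the peaks fell on 2 parts of the machine. All 5 genes of the F1 head and central stalk, ATP5F1A to ATP5F1E, and all 3 genes of the c ring, ATP5MC1 to ATP5MC3, had a wild-type peak, against 1 of the other 12 genes. This split was described after the values were seen. ATP5F1B, the catalytic beta subunit, carried the strongest peak of all members, on chromosome 12 from 56645769 to 56645955, with a fold enrichment of 29.9 that ranked 13 of 2149 and a −log10 q of 104. Its other peaks, going downstream, had fold enrichments of 15.4, 10.3, 23.7 and 6.67. ATP5F1D, the delta subunit, had a start peak of 18.2 and further peaks of 9.39 and 8.74. ATP5F1A, the alpha subunit, had peaks of 7.1, 12.9 and 9.13. ATP5F1C, the gamma subunit that turns inside the head, and ATP5F1E had 1 start peak each, of 9.01 and 7.02. The peak of ATP5F1E also lies inside SLMO2-ATP5E, a read-through non-coding RNA gene on the same strand.

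The 3 c ring genes encode the same mature protein behind different import signals, and their peaks lay in different places. ATP5MC3 had a peak of 15.4 near the start, ATP5MC1 peaks of 14.7 and 9.96 towards the end, and ATP5MC2 a peak of 4.11 at the end. Both ATP5MC1 peaks also lie inside a long non-coding RNA gene. Outside these parts, ATP5PO, the stalk subunit that holds the head, had an end peak of 7.48. No peak lay in the peripheral stalk genes ATP5PB, ATP5PD and ATP5PF, the small membrane subunit genes ATP5ME, ATP5MF, ATP5MG, ATP5MJ and ATP5MK, the inhibitor gene ATP5IF1, ATP5MGL or ATP5MF-PTCD1.

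**Figure D2:**
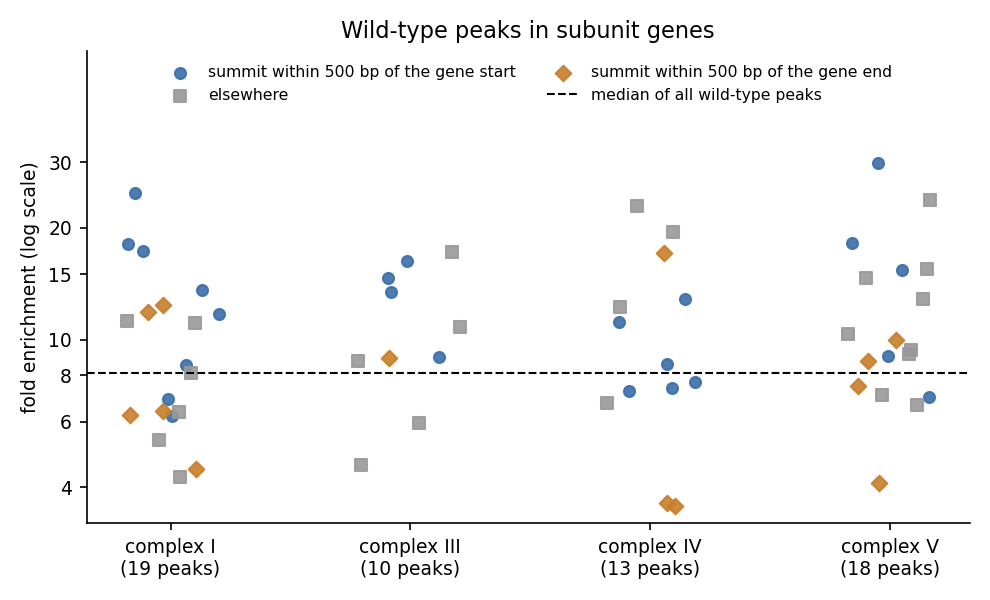
Fold enrichment, on a log scale, of the 60 wild-type peaks in subunit genes, by complex; circles have their summit within 500 bp of the gene start, diamonds within 500 bp of the end, and squares elsewhere, and the dashed line is the median of all 2149 wild-type peaks, 8.11. Points lie on both sides of the line in each complex, and the highest is the start peak of ATP5F1B at 29.9.

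The fold enrichments of the member peaks had a median of 9.26 (range 3.55 to 29.9), against 8.11 over the list, and 38 of the 60 (63.3%) reached the median of the list. By complex the medians were 8.53 in I, 9.88 in III, 8.59 in IV and 9.68 in V. The 23 peaks at gene starts had a median of 11.7 and the 37 others one of 8.9, and the ranges of these 2 kinds overlapped. The lowest −log10 q of a member peak was 5.74, against 2.04 for the list.

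Of the 60 summits, 23 (38.3%, exact 95% binomial interval 26.1 to 51.8) lay within 500 bp of the gene start, 13 (21.7%, 12.1 to 34.2) within 500 bp of the end, and 24 elsewhere. For 1920 wild-type peaks in other protein-coding genes the shares were 42.5% at starts and 8.65% at ends. In genes of at most 10 kb the member shares were 41% and 20.5% (39 peaks), against 46.2% and 14.1% in other genes (652 peaks). The gap at gene ends was thus smaller among these short genes. Their lengths were still not matched, with median spans of 3180.5 bp in members and 4663 bp in other genes. Intervals cover counting error over peaks only. Counted by gene, 23 of 37 members had a summit at the start, 13 one at the end and 6 both (ATP5F1D, COX4I1, COX5B, CYC1, NDUFB7 and NDUFS6). COX7A2L, ATP5F1A and NDUFB11 had one downstream of another annotated start in place of the outermost.

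At the starts, the peaks lay inside the transcribed part. All 23 began downstream of the annotated start, 5 to 265 bp from it with a median of 41 bp. Of the 816 start peaks in other protein-coding genes, 796 began at or downstream of the start, with a median of 64 bp over the 816, so this placement is not particular to the members. Their summits lay at a median of 115 bp, with quartiles of 89 and 138 bp. For 21 of the 23 they lay between 55 and 174 bp, and those of UQCRQ (306 bp) and ATP5MC3 (328 bp) lay farther in. Summits of start peaks in other protein-coding genes had a median of 139 bp. The annotation used here gives no exons, so whether the inner peaks lie in exons was not examined.

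**Figure D3:**
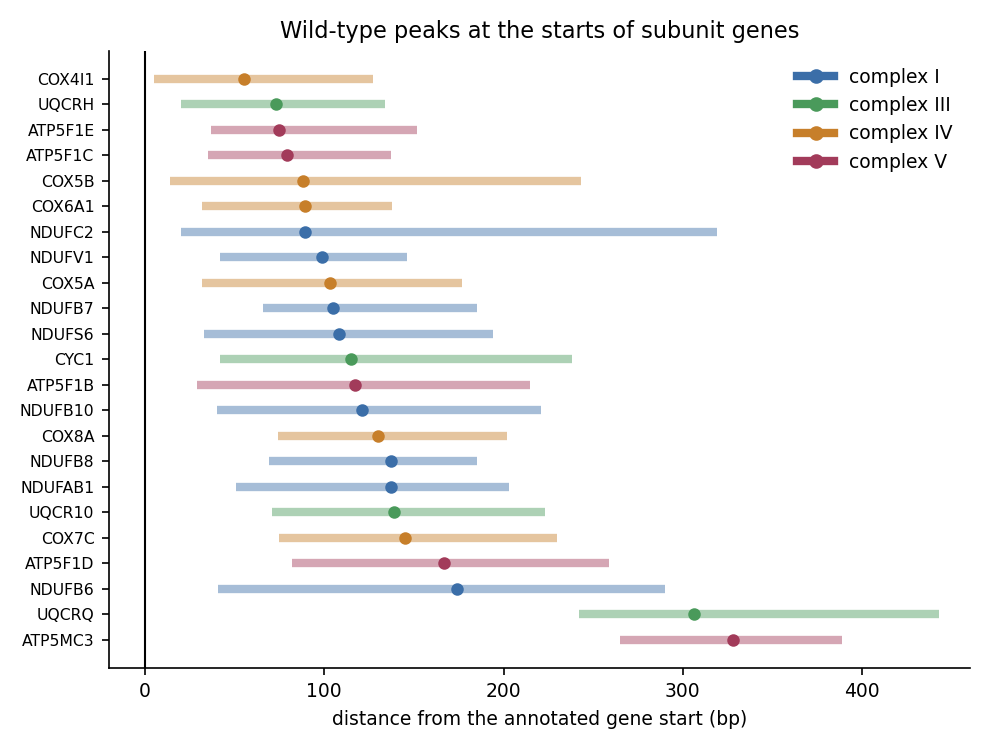
The 23 wild-type peaks with a summit within 500 bp of the start of a subunit gene, 1 per row, coloured by complex; bars run from the first to the last base of the peak and dots mark summits, in bp from the annotated start (vertical line). All bars begin to the right of the line, and 21 of the 23 summits lie between 55 and 174 bp.

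**Figure D4:**
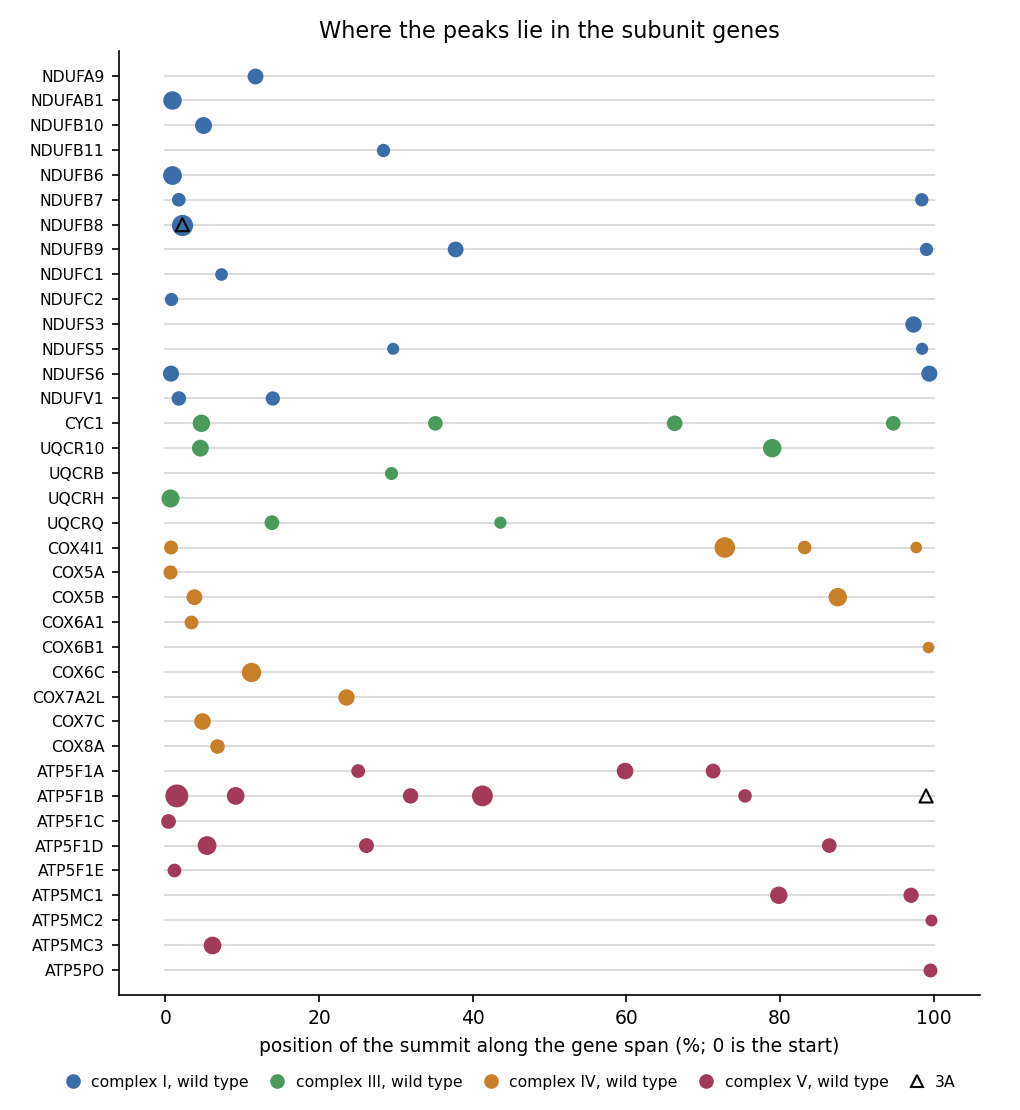
Position of each peak summit as a percentage of the gene span (0 is the start) in the 37 subunit genes with a wild-type peak, read-through copy left out; circle area grows with the fold enrichment in wild type, and open triangles are 3A summits. The 3A summit of NDUFB8 coincides with that of wild type, and the one of ATP5F1B lies at the far end, where no wild-type summit is drawn.

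The mutant lists are short and held few peaks in these genes. By gene, a 3A peak lay in 2.25% of members and 0.359% of all protein-coding genes. For 7A the shares were 0 and 0.269%. Members held 2 of 103 3A peaks (1.94%, exact 95% interval 0.236 to 6.84), 0 of 88 7A peaks (0%, 0 to 4.11) and 60 of 2149 wild-type peaks (2.79%, 2.14 to 3.58). With the wild-type list cut to the length of each mutant list by −log10 q, members held 3 of 103 peaks (2.91%, 0.605 to 8.28) and 3 of 88 (3.41%, 0.709 to 9.64). With so few peaks in members, a difference in share between the alleles was not tested.

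The 3A peak of NDUFB8 ran from 100529750 to 100529857 on chromosome 10 and the wild-type peak from 100529738 to 100529854, with the same summit at 100529786 in both and 105 bp in common. Its fold enrichment was 25.3 and ranked 5 of 103 in the 3A list, and the wild-type peak had 24.8 and ranked 33 of 2149. NDUFB8 was the only member with a peak at the same place in a mutant list and the wild-type list.

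The other 3A peak lay at the end of ATP5F1B, on chromosome 12 from 56638207 to 56638363 (8.64, rank 34), 1582 bp from the nearest wild-type peak of the gene. It can also belong to BAZ2A, a chromatin remodelling gene on the minus strand, as is the peak, whose start overlaps the end of ATP5F1B. The summit lay 66 bp inside that start and 77 bp before the end of ATP5F1B, and the gene of origin cannot be told apart.

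Around the subunits, 4 lists of other mitochondrial genes and the proteasome were read in the same way, beside the subunit share of 42.7%. Of 60 assembly factors for the complexes, 11 (18.3%) had a wild-type peak, of 19 genes of the citric acid cycle and pyruvate oxidation 7 (36.8%), of 19 carriers and electron transfer proteins 6 (31.6%), and of 77 mitochondrial ribosomal protein genes 22 (28.6%). Of 40 proteasome genes, which do not act in the mitochondrion, 15 (37.5%) had one. The subunit share was the highest of the 6, all 6 exceeded 6.78%, and none of these differences was tested. In the 3A list PSMA7 of the proteasome was the only gene of these 5 lists with a peak, and in the 7A list there was none.

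The highest assembly factor peaks lay at the starts of SLIRP (27.0), whose product keeps mitochondrial messages stable, the complex IV factor COA6 (24.8), the complex I factor NDUFAF2 (22.3) and the complex III factor UQCC3 (8.9). The other factors with a wild-type peak were COA4, COX16, LRPPRC, NDUFAF4, NDUFAF8, SCO2 and UQCC4. In the citric acid cycle list DLAT, a subunit of pyruvate dehydrogenase (22.9), malate dehydrogenase MDH2 (15.3) and citrate synthase CS (11.2) led, and SUCLG1 had a peak as well. The peaks in IDH3B (10.4) and PC lay on the opposite strand and overlapped NOP56 and LRFN4. Among carriers, the pore VDAC1 (18.3), CYCS, which is cytochrome c itself (18.1), the phosphate carrier SLC25A3 (15.3) and VDAC2 (8.13) led, followed by SLC25A5 and SLC25A10.

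Near starts lay 38.3% of the 60 peaks in subunit genes, against 74.1% of the 27 in mitochondrial ribosome genes, 72.7% of the 11 in assembly factors, 55% of the 20 in proteasome genes, 44.4% of the 9 in carriers and 30% of the 10 in citric acid cycle genes. These differences were not tested. Of the ribosome genes, MRPL32 (16.9), MRPL37 (14.8), MRPL15 (13.4) and MRPL58 (13.1) had the highest peaks. The others with a peak were MRPL3, MRPL4, MRPL12, MRPL14, MRPL16, MRPL24, MRPL38, MRPL41, MRPL52, MRPS5, MRPS12, MRPS15, MRPS16, MRPS23, MRPS25, MRPS26, MRPS30 and MRPS34. In the proteasome PSMD7 (23.03), PSMA7 (20.7), PSMB5 (16.0) and PSMA5 (16.0) led. PSMB1, PSMB2, PSMB6, PSMC5, PSMD1, PSMD2, PSMD3, PSMD6, PSMD8, PSMD9 and PSMD14 also had a peak.

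**Figure D5:**
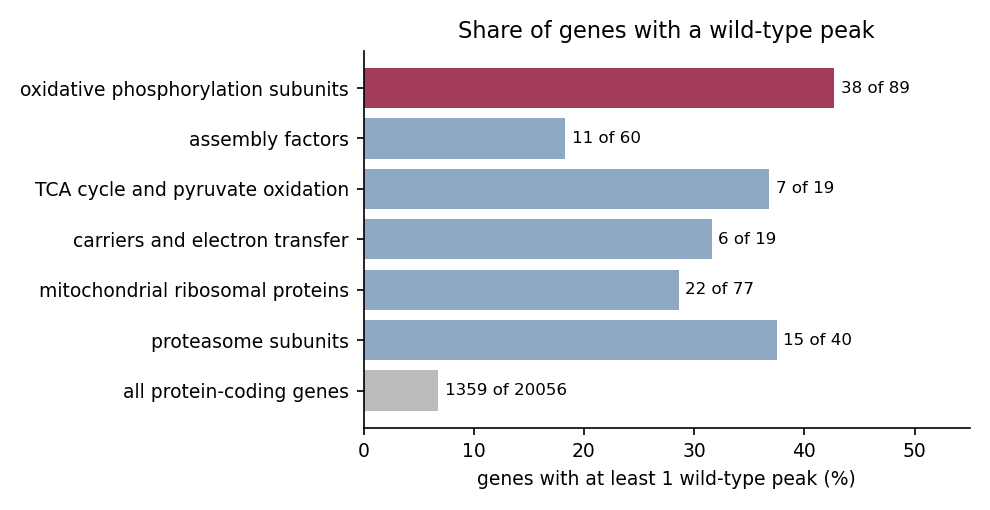
Percentage of genes with at least 1 wild-type peak in the subunit genes, in 5 other gene lists and over all protein-coding genes, with the counts at the end of each bar. The subunit bar is at 42.7% and the bar of all protein-coding genes at 6.78%.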

How the data were processed

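The authors deposited 1 peak list in narrowPeak layout per allele with doxycycline. Per the submitters' processing notes, cutadapt, BWA and MACS2 were used with build hg38. Settings, tool versions, the control and any pooling were not given in the sources used here. Per peak, the deposited fold enrichment is a ratio over an unnamed background, and the deposited −log10 q is the caller's. The deposited score column follows that value and was not used. Both values were used only within a list. Depth per sample is unknown.

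Starts were made 1-based. A peak was given to every gene of the RefSeq table whose span it shared by at least 1 bp. Gene strands came from the RefSeq promoter table for 71 of the 89 members. For the other 18 the strand of the peak was taken. Starts are the outer ends of spans, and near means within 500 bp of the summit. Exact (Clopper-Pearson) binomial intervals are at 95%, also for a count of 0. Assignment was tested on simulated data with planted peaks.

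The members, role groups and lists were chosen with earlier results of these data known, so no test was made. Members and list genes with a peak are named, apart from items not reported here, with values for the 10 highest member peaks, members with at least 2 peaks, mutant peaks and the 4 highest genes of each list. Values of other member peaks were added after the data were seen. Alternatives were the summit or 50% of the peak in the span, a −log10 q minimum of 5, fold enrichment from the list median up, wider spans, the shortest host gene, the strand, read-through genes left out, other distances from the start, and motif windows. Python 3.11.15, pandas 2.3.3, NumPy 2.4.6, SciPy 1.17.1 and Matplotlib 3.10.9 were used.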

Additional observations from a re-analysis of the deposited data

How the results depend on the processing

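Of 110 alternative values of 19 results, 102 stayed within 1.5 times a count or within the counting interval of a share. Some of these 102 could not have moved, so the count overstates how stable the results are. The −log10 q minimum removed no member peak, because all of them lie above it. CACGTG and CANNTG read the same on both strands, so a search of the forward strand alone could not change their shares. Complex II and the 7A list had no member peak to lose under settings that only remove peaks. With peaks below the list median of fold enrichment dropped, fewer peaks remain by construction: 25 genes and 38 peaks in wild type, and 9 genes of complex I. Of all 20056 protein-coding genes, 790 kept a wild-type peak under this filter, against 1359 without it. In the last 100 bases of the promoter window alone, CACGTG was in 1.47% of member promoters (against 3.48% of all protein-coding promoters in the same bases), CANNTG in 23.5% (against 29.5%), the NRF1 core in 4.41% (against 2.39%) and the ETS core in 17.6% (against 8.49%). On the forward strand alone, the ETS core was in 11.8% (against 8.19%). Starts of any annotated transcript, genes of at most 10 kb and equal numbers of wild-type peaks were chosen after seeing the data. With any annotated start, 45% of wild-type summits in members lay near one, against 38.3% with the outermost, and this counts the opposite-strand peak of NDUFC1, at -403 bp from such a start. No paired analysis was possible because the 3 lists carry no replicate numbers, and leaving out a replicate could not be done either. Unknown depth and short mutant lists limit every statement on 3A and 7A.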

Other observations

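RefSeq lists 202 pseudogenes named after the subunit genes, and a wild-type peak lay in 2 of them, both copies of F1 genes of complex V. No share over all pseudogenes is given here, so this count cannot be called high or low. ATP5F1EP2 on chromosome 13 had a peak from 27945263 to 27945476 (fold enrichment 7.61), and ATP5F1AP3 on chromosome 16 one from 72006487 to 72006645 (11.2). The parent genes ATP5F1E and ATP5F1A had wild-type peaks as well, and reads of a parent and its copy can be confused. No 3A or 7A peak lay in any of the 202.

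No peak of any list lay on the mitochondrial chromosome, so none was called in the genes of the 13 subunits made from mitochondrial DNA. Whether reads of that chromosome were kept in processing is unknown, so this does not show that those RNAs were unbound. Of 474 nuclear pseudogenes of those 13 genes, 3 had wild-type peaks (MTATP6P1, MTND2P28 and MTND5P11), with fold enrichments from 4.62 to 10.5. Reads of a mitochondrial gene and its nuclear copy can be confused as well. For this count too, no share over all pseudogenes is given.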
